A study of Homo sapiens with 8 samples.

Results

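Axon guidance genes were followed in ATRA-treated SK-N-SH cells with raised or lowered ZMYND8: the secreted and membrane ligands (semaphorins, ephrins, Slits and netrins) and the receptors that read them (neuropilins, plexins, Eph, Robo, DCC and UNC5 receptors). They were taken by symbol, as the protein-coding genes named after these families, which gave 72 of the 60659 genes in the count table. Of the 72, 69 belong to a guidance family, 35 as ligands and 34 as receptors. UNC50 and UNC5CL are not netrin receptors, and EFNA4-EFNA3 is a readthrough of neighbouring ephrin genes whose exon bases all lie in EFNA3 or EFNA4. These 3 were left out of the counts below. UNC50 (log2 fold change with overexpression -0.17 ± 0.0698, with its standard error as in all fold changes below) did not pass the test described below, UNC5CL had 2 to 26 counts and the readthrough 0 to 1.

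SK-N-SH is a human neuroblastoma line. RNA was depleted of ribosomal RNA and sequenced in 8 libraries, 2 for each of 4 groups, and all cells received 10 µM all-trans retinoic acid (ATRA) for 24 h. In the overexpression experiment, cells that express FLAG ZMYND8 from a doxycycline-inducible lentivirus (ZMYND8 OE) were compared with parental cells, and both groups received doxycycline (Dox). The comparison group is named as parental cells, with no empty vector. In the knockdown experiment, cells labelled as ZMYND8 knockdown (ZMYND8 KD) were compared with a control knockdown (KD control), without Dox in the sample descriptions. For knockdown the paper describes lentiviral shRNA, with selection doses for SH-SY5Y and neural stem cells only. Whether any line is 1 clone, and whether the 2 libraries of a group came from separate cultures, is not given in the sources used here, so the p-values measure only the spread between these libraries.

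The libraries held 38316523 to 56256979 counts on genes. The targeted gene, ZMYND8, went from 3089 and 3612 counts in parental to 220691 and 182849 in OE libraries, and from 3128 and 3374 in KD control to 1641 and 1640 in KD libraries. Markers of the adrenergic state of neuroblastoma moved with the overexpression: 6 of 9 tested were called higher and none lower, against 11.7% and 6.84% of all genes tested. The summed level of the 10 genes was 128.0 to 129.1 in parental and 348.4 to 361.8 in OE libraries. In KD control libraries it was 274.0 to 288.8 and in KD libraries 211.1 to 237.6. The level used throughout is CPM per kilobase (TMM-scaled CPM divided by the exon length in kilobases). Of the 12 markers of the mesenchymal state, 8 were called lower and 1 higher with OE, against 6.84% and 11.7% of all genes tested. Their summed level was 1689 to 1810, 630.1 to 656.5, 751.0 to 764.9 and 948.7 to 982.9 in the same order. TH, which encodes the first enzyme of catecholamine synthesis, had at most 5 counts in any library. The sample descriptions call the cells epithelial. Of the 7 epithelial markers, KRT5, KRT14 and ESRP1 had at most 3 counts in every library and CDH1 at most 12, while CLDN4 had 192 to 504, KRT19 13 to 79 and EPCAM 22 to 56, with a summed level of the list between 1.275 and 3.135. SOX10 and CDH19 of the 8 Schwann cell and glial markers were as low, and the summed level of these 8 genes was 0.7052 to 0.7786 in parental and 2.289 to 2.356 in OE libraries. Of the 5 tested, S100B (3.14 ± 0.285) and ERBB3 (2.58 ± 0.228) were called higher with OE and 0 lower, against the same 11.7% and 6.84%. CDH5 of the 7 endothelial markers was also at most 3 everywhere, with a summed level of the list between 0.3902 and 1.261. Of the 6 tested, KDR (3.84 ± 0.26) and CLDN5 (5.35 ± 0.598) were called higher with OE, against 11.7% of all genes. PECAM1 (-3.31 ± 0.45) and VWF (-3.50 ± 0.433) were called lower, against 6.84%. CLDN5 (3 and 0 parental counts) and KDR (9 and 10) passed the filter on low counts through the OE libraries. VWF (3 and 5 OE counts) passed it through the parental libraries. CLDN5, KDR and VWF could thus enter the test only in the direction in which they were called. In bulk RNA, fewer cells of a state and less RNA per cell cannot be told apart, and the part of these markers' shifts in the guidance results below was not tested.

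Guidance ligands steer growing axons and migrating cells by attraction or repulsion. Class 3 semaphorins are secreted and mostly act through a neuropilin, which binds the ligand, and a plexin, which carries the signal, whereas most membrane semaphorins bind plexins directly. Ephrins are held at the membrane by a lipid anchor (ephrin-A) or a transmembrane segment (ephrin-B) and are read by Eph receptor tyrosine kinases on neighbouring cells. Slits repel through Robo receptors, and netrins attract through DCC or repel through UNC5 receptors. Several of these genes are also known from neural crest migration, from which the sympathetic lineage of neuroblastoma arises.

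The promoters of the members that moved most with OE are printed first, since the rest of the text turns on their transcripts. RefSeq (GRCh38.p14) lists a promoter for 59 of the 69 members. Shown are the 250 bases before the start of 3 genes that rose most and 3 that fell most among those that have an entry and whose mean normalized count is above 100, 5′ to 3′ on the gene's strand. Capitals mark matches on either strand to 5 short motifs: AGGTCA, the core hexamer bound by nuclear receptors including the retinoic acid receptors, TGACTCA, the AP-1 site, the E-boxes CAGCTG and CATCTG, and GGGCGG, the GC box of Sp1. The windows lie at chr6:93419560-93419809 (minus strand, EPHA7), chr15:47183839-47184088 (plus strand, SEMA6D), chr5:176810309-176810558 (plus strand, UNC5A), chr2:205682251-205682500 (plus strand, NRP2), chr7:143408857-143409106 (minus strand, EPHA1) and chr1:16156070-16156319 (minus strand, EPHA2).
EPHA7: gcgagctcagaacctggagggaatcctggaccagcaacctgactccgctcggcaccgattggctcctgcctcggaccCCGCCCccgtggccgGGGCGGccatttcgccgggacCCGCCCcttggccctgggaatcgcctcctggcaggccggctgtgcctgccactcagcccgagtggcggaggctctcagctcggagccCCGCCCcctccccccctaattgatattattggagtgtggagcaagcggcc
SEMA6D: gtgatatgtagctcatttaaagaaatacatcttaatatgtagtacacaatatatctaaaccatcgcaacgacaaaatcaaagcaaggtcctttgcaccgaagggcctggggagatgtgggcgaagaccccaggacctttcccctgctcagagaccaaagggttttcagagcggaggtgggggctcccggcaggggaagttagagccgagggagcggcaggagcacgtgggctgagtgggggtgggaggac
UNC5A: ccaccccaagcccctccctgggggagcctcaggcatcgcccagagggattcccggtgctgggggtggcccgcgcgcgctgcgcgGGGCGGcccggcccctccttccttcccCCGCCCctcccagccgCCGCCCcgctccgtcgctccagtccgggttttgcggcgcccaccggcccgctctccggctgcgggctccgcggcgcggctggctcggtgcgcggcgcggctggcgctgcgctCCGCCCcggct
NRP2: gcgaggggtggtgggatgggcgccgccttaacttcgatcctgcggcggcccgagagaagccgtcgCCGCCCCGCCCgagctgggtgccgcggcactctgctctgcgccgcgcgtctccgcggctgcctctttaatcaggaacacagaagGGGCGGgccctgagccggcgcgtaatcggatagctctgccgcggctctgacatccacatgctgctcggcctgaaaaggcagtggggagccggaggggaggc
EPHA1: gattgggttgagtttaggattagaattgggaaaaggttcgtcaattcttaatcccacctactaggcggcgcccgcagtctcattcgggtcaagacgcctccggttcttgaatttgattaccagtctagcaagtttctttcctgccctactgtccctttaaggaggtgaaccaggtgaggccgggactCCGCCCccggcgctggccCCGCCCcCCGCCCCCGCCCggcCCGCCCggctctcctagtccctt
EPHA2: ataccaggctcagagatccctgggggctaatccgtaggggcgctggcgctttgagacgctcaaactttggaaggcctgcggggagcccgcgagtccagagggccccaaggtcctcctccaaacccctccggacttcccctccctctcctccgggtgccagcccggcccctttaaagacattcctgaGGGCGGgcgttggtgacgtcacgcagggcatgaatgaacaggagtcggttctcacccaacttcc

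All capitals in these windows are GC boxes, and SEMA6D holds none. The GC box was present in 43 of the 59 member promoters (72.9%) and in 42.6% of all 35116 promoters in the table, where the median GC content was 58% against 65.6% for the members. AGGTCA stood in 6 member promoters (10.2%, against 12.1% of all), CAGCTG in 7 (11.9% against 14%), CATCTG in 4 (6.78% against 12.2%) and TGACTCA in 0 (against 4.2%). Among the members called higher with OE, 10 of 17 promoters held the GC box and 2 held AGGTCA, in NTN4 and SEMA5B. Among those called lower, 9 of 11 held the GC box and 2 held AGGTCA, in ROBO4 and SEMA5A. A match is a run of letters only, and where a gene has several entries the first was used.

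The first comparison asks which guidance genes differed when ZMYND8 was raised under ATRA. Both directions were common: of 68 members tested, 25 were called higher (36.8%, against 11.7% of all genes tested) and 13 were called lower (19.1%, against 6.84%). A gene was called at an adjusted p below 0.05 in edgeR's quasi-likelihood test, at least a 2-fold change and a mean normalized count above 20. Without the fold limit, 37 members passed the test as higher and 25 as lower, against 26.6% and 27.7% of all genes tested. The median log2 fold change was 0.41 over the members and 0.03 over all genes tested. Ligands and receptors shared in both directions, with 12 ligands and 13 receptors called higher and 6 ligands and 7 receptors called lower. EPHA8 was too low to be tested. Another 9 members, DCC, EPHA3, EPHA5, EPHA6, EPHA7, EPHA10, NTN1, SEMA5B and SLIT1, had at most 8 counts in either parental library and passed the filter on low counts through the OE libraries, so they could enter the test only as higher.

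**Figure D1:**
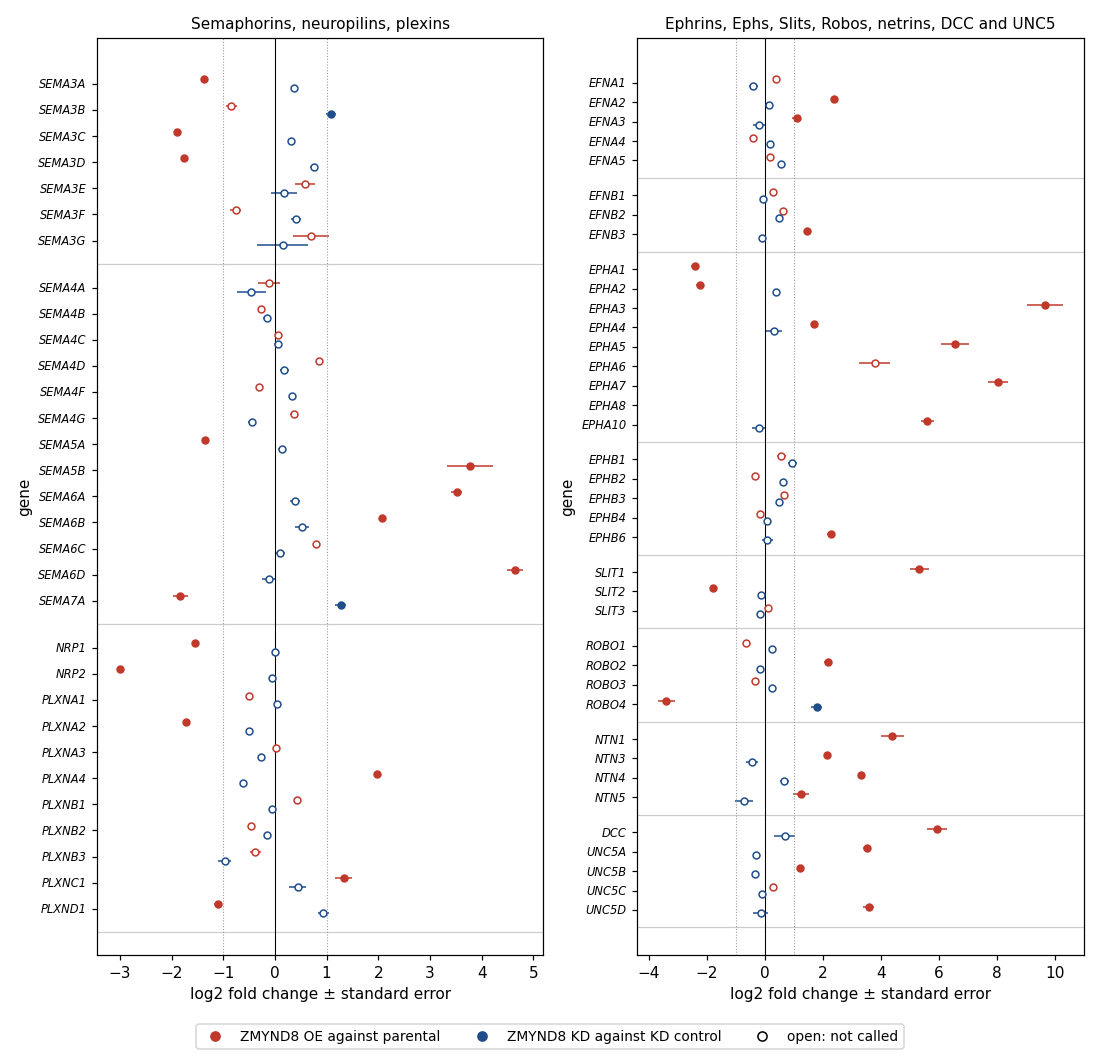
Log2 fold change with its standard error (x axis) of each guidance gene (y axis) with ZMYND8 OE against parental cells (red) and with ZMYND8 KD against KD control (blue). Filled points were called and dotted lines mark a 2-fold change; the OE values of EPHA3, EPHA5 and EPHA7 rest on 0 to 2 parental counts, so their size depends on the fit. Red points spread from -3.40 (ROBO4) to 9.66 (EPHA3), and blue points from -0.98 (PLXNB3) to 1.78 (ROBO4).

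Most secreted class 3 semaphorins fell, together with their neuropilin receptors. Of 7 class 3 genes, 5 passed the test as lower with OE, 3 of them called, and 1 passed as higher (SEMA3E, log2 fold change 0.58 ± 0.187, which did not pass with DESeq2, adjusted p = 0.167). SEMA3C, the most abundant of them, had 15455 and 18230 counts in the parental, 5384 and 3961 in the OE, 9184 and 10061 in the KD control and 11380 and 11649 in the KD libraries. Its log2 fold change was -1.90 ± 0.0599 (adjusted p = 1.33e-09), and the OE libraries lay below all others. SEMA3D had 2818 and 3515 counts in the parental, 1099 and 836 in the OE, 835 and 986 in the KD control and 1435 and 1523 in the KD libraries, a log2 fold change of -1.76 ± 0.0592 (adjusted p = 1.97e-09). Here the parental libraries were the highest and the OE and KD control libraries were close to each other in level, at 2.35 ± 0.142 and 2.12 ± 0.177 CPM per kilobase (mean ± SD, n = 2), a comparison between experiments that was not tested. SEMA3A, the prototype collapsing factor of growth cones, was called lower at -1.37 ± 0.0647. SEMA3F (-0.76 ± 0.104) and SEMA3B (-0.85 ± 0.108) passed the test with less than a 2-fold decrease. SEMA3G, with 17 to 58 counts in these libraries, had 0.70 ± 0.354 and did not pass.

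Both neuropilins were called lower. NRP2, the co-receptor of SEMA3C and SEMA3F, had the largest decrease of any member with a mean normalized count above 100. It had 22027 and 26858 counts in the parental, 3542 and 2791 in the OE, 26702 and 27311 in the KD control and 25357 and 24814 in the KD libraries. The log2 fold change was -2.996 ± 0.0519 (adjusted p = 3.27e-11), and the OE libraries stood apart from the other 3 groups, which lay within 34.68 to 38.24 CPM per kilobase. NRP1, the co-receptor of SEMA3A, was called lower at -1.55 ± 0.0526, from 85.6 ± 1.37 to 27.5 ± 1.56 CPM per kilobase. Unlike NRP2, its KD control level of 31.2 ± 1.0 was near the OE level and not the parental one. The antisense transcript inside NRP2, ENSG00000225216, which shares 1.06% of the exon bases of NRP2, had 221 and 260 counts in parental and 27 and 17 in OE libraries. It had 0 to 2 in the libraries of the knockdown experiment. With the strand setting of the counting not given, these counts cannot be told apart from reads of NRP2 itself.

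Plexins changed in both directions. PLXNA2, a receptor of SEMA6A and of class 3 semaphorins, had 17484 and 22773 counts in the parental, 7131 and 5398 in the OE, 6321 and 6204 in the KD control and 4488 and 4099 in the KD libraries, a log2 fold change of -1.73 ± 0.0595 (adjusted p = 2.29e-09). PLXND1, the receptor of SEMA3E, was called lower at -1.11 ± 0.066. PLXNA4, which transmits SEMA3A and SEMA6A signals, went the other way with 1493 and 1813 counts in the parental, 7169 and 6208 in the OE, 16775 and 18068 in the KD control and 11018 and 10917 in the KD libraries. Its log2 fold change was 1.97 ± 0.053 (adjusted p = 4.28e-10), yet the KD control and KD libraries held more PLXNA4 than the OE libraries. PLXNC1, the SEMA7A receptor, was called higher at 1.33 ± 0.168 with 128 and 133 against 323 and 350 counts. PLXNB1 passed the test as higher (0.42 ± 0.0587), PLXNA1 (-0.49 ± 0.0576), PLXNB2 (-0.46 ± 0.0537) and PLXNB3 (-0.38 ± 0.11) passed as lower, and PLXNA3 did not pass (0.029 ± 0.059). PLXNB3 shares 20.4% of its exon bases with SRPK3 on the same strand, and PLXNC1 shares 9.88% with genes on the opposite strand.

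**Figure D2:**
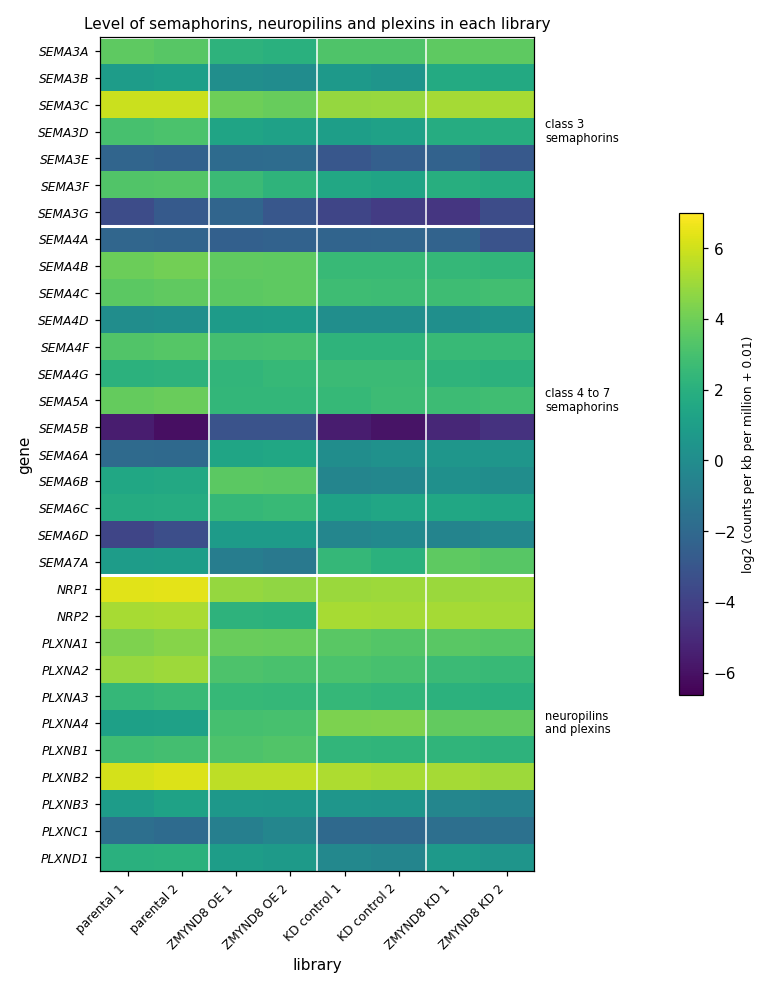
Level of the semaphorins, neuropilins and plexins (rows) in each of the 8 libraries (columns), as log2 of CPM per kilobase plus 0.01. NRP2 is dark in the 2 OE libraries (4.35 and 4.58 CPM per kilobase) and bright in the other 6 (34.7 to 38.2), and the SEMA6D row is darkest in the 2 parental libraries (0.061 and 0.088).

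Among the membrane semaphorins, class 6 rose and SEMA5A and SEMA7A fell. All 4 class 6 genes passed the test as higher and 3 were called. SEMA6D had 22 and 38 counts in the parental, 843 and 708 in the OE, 341 and 412 in the KD control and 312 and 358 in the KD libraries, a log2 fold change of 4.65 ± 0.156 (adjusted p = 1.95e-09). SEMA6A had 118 and 132 counts in the parental, 1554 and 1392 in the OE, 569 and 714 in the KD control and 797 and 816 in the KD libraries, with 3.52 ± 0.0993 (adjusted p = 6.09e-10). In both genes the parental libraries were the lowest of all 8, and the KD control and KD libraries lay between them and the OE libraries. SEMA6B was called higher (2.07 ± 0.0655), but its KD control level of 0.762 ± 0.0277 CPM per kilobase was below the parental level of 2.9 ± 0.198. SEMA6C passed at 0.79 ± 0.0674. SEMA7A, a ligand held by a lipid anchor that binds PLXNC1 and integrins, had 292 and 369 counts in the parental, 114 and 78 in the OE, 1064 and 878 in the KD control and 2416 and 2125 in the KD libraries. Its log2 fold change with OE was -1.83 ± 0.148 (adjusted p = 1.68e-06). SEMA5A was called lower at -1.35 ± 0.0524, and its paralogue SEMA5B was called higher at 3.77 ± 0.445 from 4 and 2 to 48 and 40 counts, a call that depends on the limit on the mean count, since its mean of 23.2 falls to 16.0 or 16.9 without OE library 1 or 2. In class 4, SEMA4D (0.86 ± 0.0736) and SEMA4G (0.36 ± 0.0789) passed as higher, SEMA4B (-0.27 ± 0.058) and SEMA4F (-0.31 ± 0.0566) as lower, and SEMA4A (-0.11 ± 0.215) and SEMA4C (0.055 ± 0.0567) did not pass. SEMA4G shares 27.4% of its exon bases with genes on the opposite strand.

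Among Eph receptors of class A, EPHA2 dominated in both groups, with a smaller share with OE. In parental cells EPHA2 made up 96.6% of the summed level of the 9 EphA genes, and with OE 79.5%, followed by EPHA4 at 10.1%. EPHA2, a receptor of EFNA1 that is known from epithelial and invasive tumour cells, had 18582 and 23830 counts in the parental, 5786 and 3506 in the OE, 16587 and 15322 in the KD control and 21150 and 18599 in the KD libraries. Its log2 fold change was -2.25 ± 0.112 (adjusted p = 3.51e-08), and although the OE libraries differed from each other, both lay below the other 6. Against this, 5 of the 8 tested EphA genes were called higher. Of these, EPHA3, EPHA5, EPHA7 and EPHA10 passed the filter on low counts through the OE libraries and could be called only as higher. The remaining gene was EPHA4. EPHA7, a repulsive receptor of the developing cortex and retinal map, had 1 and 1 counts in parental and 299 and 307 in OE libraries, a ratio of 276 (exact 95% interval 76.0 to 2280, counting error only), and 0 to 1 counts in each KD control and KD library. EPHA3 had 0 counts in all parental, KD control and KD libraries and 117 and 89 with OE, which is at least 30.9-fold higher when 3 counts per parental library are set as the floor. EPHA5 had 0 and 2 against 113 and 103 counts, a ratio of 98.2 (26.9 to 816), and 0 in the knockdown experiment. These 3 receptors were thus seen in the OE libraries at 0.206 to 0.890 CPM per kilobase and hardly elsewhere.

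EPHA10, which lacks kinase activity, had 6 and 8 counts in the parental, 368 and 337 in the OE, 47 and 66 in the KD control and 48 and 46 in the KD libraries, a log2 fold change of 5.59 ± 0.223 (adjusted p = 6.82e-09). EPHA4, which binds both ephrin classes, was called higher at 1.68 ± 0.0905. EPHA6 (2 and 3 against 52 and 23 counts, ratio 13.6, interval 5.59 to 43.2) stayed under the limit on the mean, and EPHA8 (2 and 0 against 10 and 16, ratio 11.8, interval 2.96 to 103) was not tested. EPHA1 went with EPHA2 and fell by 2.40 on the log2 scale (SE 0.138), with 555 and 710 counts in parental, 118 and 127 in OE, and 9 to 10 in each library of the knockdown experiment. EPHA1 overlaps ZYX on the opposite strand over 1.75% of its exon bases, and ZYX had 30735 and 37614 counts in parental and 9285 and 6541 in OE libraries, a log2 fold change of -2.17 ± 0.0696. In the overexpression experiment, 286 non-coding genes that lie inside exons of 1 abundant protein-coding gene on the opposite strand held a median of 5.61% to 6.18% of that gene's read density per library, and 0.292% to 0.349% in the knockdown experiment. The strand setting of the counting is not given, so antisense reads cannot be told apart from reads of the gene on the other strand. The part of reads from ZYX in the EPHA1 counts was not tested.

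EphB receptors and ephrins moved less. EPHB6, which also lacks kinase activity, was called higher at 2.26 ± 0.13, although 95.3% of the 31-base stretches of its exons are found a further time in the genome, on an alternate contig, where reads can be lost. EPHB3 (0.65 ± 0.0857) and EPHB1 (0.56 ± 0.149) passed as higher, and EPHB2 (-0.35 ± 0.0533) and EPHB4 (-0.16 ± 0.0517) as lower. The EPHB4 difference has the opposite sign when libraries are scaled to TPM, that is to an equal sum of length-scaled counts, which raises all log2 fold changes of this comparison by 0.23. Of the ephrins, 7 of 8 passed as higher, with EFNA4 (-0.42 ± 0.0812) as the exception. EFNA2 had 123 and 149 counts in the parental, 800 and 668 in the OE, 408 and 483 in the KD control and 476 and 477 in the KD libraries, a log2 fold change of 2.39 ± 0.108 (adjusted p = 1.69e-08), and the parental libraries were the lowest of all. EFNB3, a transmembrane ligand of EPHA4 and EphB receptors, was called higher at 1.47 ± 0.0767 and was the most abundant ephrin in OE libraries at 35.6 ± 4.03 CPM per kilobase. EFNA3 was called at 1.10 ± 0.161, close to the limit, and shares 43.9% of its exon bases with the readthrough gene. EFNA1 (0.40 ± 0.0955), EFNA5 (0.18 ± 0.0628), EFNB1 (0.28 ± 0.0838) and EFNB2 (0.64 ± 0.0572) passed with less than a 2-fold increase. With DESeq2 the adjusted p was 0.186 for EFNA5 and 0.0926 for EFNB1, so that 5 of the 8 ephrins passed as higher, and EFNA5 also did not pass without either parental library or without OE library 2. EFNB2 shares 36.4% of its exon bases with ENSG00000284966 on the opposite strand.

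Slit ligands changed their mix. SLIT2 had 24012 and 30466 counts in the parental, 9014 and 7046 in the OE, 14056 and 15460 in the KD control and 13228 and 12610 in the KD libraries, a log2 fold change of -1.81 ± 0.0525 (adjusted p = 7.42e-10). SLIT3 did not pass (0.12 ± 0.0502), and its share of the summed Slit level was 25.2% in parental and 55.5% in OE cells. SLIT1, the Slit most restricted to the nervous system, had 6 and 3 counts in parental and 189 in both OE libraries (5.31 ± 0.328), and 2 to 9 in the knockdown experiment. Of the receptors, ROBO1 made up 80.5% to 88.5% of the summed Robo level in each group and passed as lower at -0.64 ± 0.0465. ROBO2 was called higher at 2.18 ± 0.143 from 74 and 109 to 462 and 389 counts, while the KD control libraries held 847 and 1032. ROBO4, the endothelial member of the family, had 86 and 134 counts in the parental, 10 and 11 in the OE, 66 and 52 in the KD control and 203 and 191 in the KD libraries. It was called lower at -3.40 ± 0.297 (adjusted p = 3.01e-06), shares 18.0% of its exon bases with transcripts on the opposite strand, and is low in all groups. ROBO3 passed as lower at -0.35 ± 0.0901.

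Netrins and their receptors all rose. All 4 netrins were called higher, and all 5 receptors passed as higher, 4 of them called. Among these, NTN1 and DCC could enter the test only as higher. NTN4, a netrin of basement membranes, had 88 and 85 counts in the parental, 950 and 844 in the OE, 140 and 167 in the KD control and 221 and 249 in the KD libraries, a log2 fold change of 3.33 ± 0.13 (adjusted p = 5.77e-09). NTN1, the classical axon attractant, had 4 and 2 counts in parental and 74 and 61 in OE libraries (4.39 ± 0.403), and 1 to 4 in the knockdown experiment. NTN3 (2.13 ± 0.112) and NTN5 (1.25 ± 0.269) were called as well. DCC, the attractive netrin receptor, had 1 and 5 against 225 and 167 counts (5.93 ± 0.349), and 14 to 28 in the knockdown experiment. UNC5A had 70 and 74 counts in the parental, 923 and 772 in the OE, 602 and 565 in the KD control and 454 and 464 in the KD libraries, a log2 fold change of 3.51 ± 0.121 (adjusted p = 2.33e-09). UNC5D had 21 and 29 counts in the parental, 303 and 307 in the OE, 47 and 73 in the KD control and 46 and 59 in the KD libraries, with 3.57 ± 0.202 (adjusted p = 1e-07). UNC5B was called at 1.19 ± 0.0681, and UNC5C, by mean level the most abundant of these receptors in each group, passed at 0.29 ± 0.0578. DCC and NTN1 thus remained far below UNC5B and UNC5C in level, at 0.291 ± 0.0227 and 0.206 ± 0.000812 against 27.4 ± 2.52 and 30.1 ± 1.99 CPM per kilobase in OE cells.

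**Figure D3:**
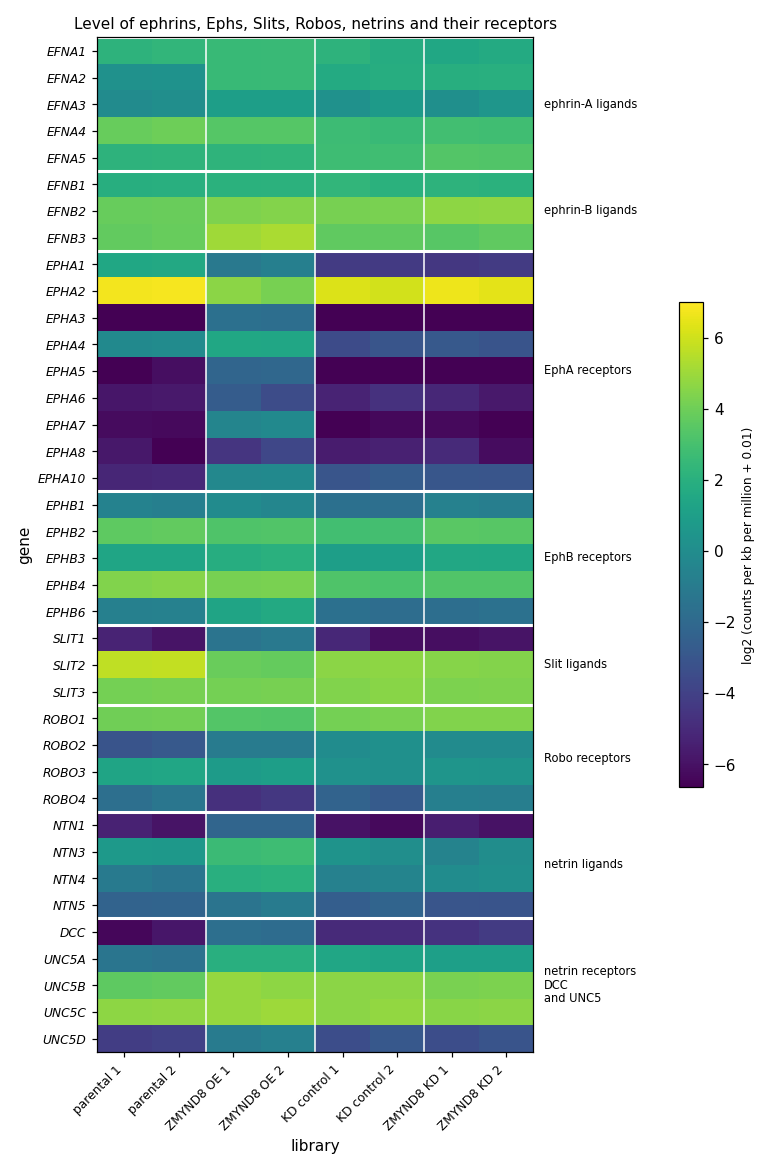
Level of the ephrins, Eph receptors, Slits, Robos, netrins and netrin receptors (rows) in each library (columns), as log2 of CPM per kilobase plus 0.01. EPHA3, EPHA5 and EPHA7 are at 0.206 to 0.890 CPM per kilobase in the 2 OE libraries and at most 0.00402 in the other 6, and EPHA2 is brightest everywhere except with OE.

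Read by pair, ligand and receptor were called together in some pairs and singly in others. Of 31 ligand and receptor pairs listed from textbook knowledge, in which a gene can appear more than once, both partners were called the same way with OE in 9, in opposite ways in 4, and 1 partner was called in 11. The netrin pairs called higher share 1 ligand, NTN1, with DCC, UNC5A, UNC5B and UNC5D as receptors. These pairs are not separate observations, and NTN1 (4 and 2 parental counts) and DCC (1 and 5) could enter the test only as higher. The same limit holds for EPHA3, EPHA5 and EPHA7, paired with EFNA5, and for SLIT1, paired with ROBO1. No share over other pairs of genes is given, so the pair counts cannot be read as particular to guidance pairs. Secreted semaphorins moved down with their co-receptors, SEMA3A with NRP1 and SEMA3C with NRP2 and PLXND1. SEMA6A rose with PLXNA4 and EFNB3 with EPHA4. The opposite pairs were SEMA3A with PLXNA4, SEMA6A with PLXNA2, SEMA7A with PLXNC1 and SLIT2 with ROBO2.

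The pairs with 1 called partner show where only 1 side of a signal moved past the 2-fold limit. EFNA1 was at 4.79 ± 0.393 in parental and 5.92 ± 0.129 in OE cells, while its receptor EPHA2 went from 110 ± 5.18 to 21.7 ± 4.77 CPM per kilobase. EFNA5, at 4.53 ± 0.127 and 4.82 ± 0.106, was already present in parental cells. Its receptors EPHA3, EPHA5 and EPHA7 were called in OE cells, but could enter the test only as higher. SLIT2 went from 53 ± 2.09 to 14.2 ± 0.589 beside ROBO1 at 16.8 ± 0.119 and 10.1 ± 0.172. SEMA6D rose beside PLXNA1, which was at 21.7 ± 1.76 and 14.4 ± 0.182. The other pairs of this kind were SEMA3E with PLXND1, SEMA3F with NRP2, SEMA5A with PLXNB3, SLIT1 with ROBO1 and NTN1 with UNC5C. In the 7 pairs with no called partner, among them SEMA4D with PLXNB1 and EFNB2 with EPHB4, the log2 fold changes lay between -0.76 (SEMA3F) and 0.86 (SEMA4D).

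The mean levels of the other partners over the 4 groups are given as a description, with no test between the experiments (mean ± SD, n = 2). SEMA3A was at 11.6 ± 0.651 CPM per kilobase in parental, 4.21 ± 0.32 in OE, 9.46 ± 0.16 in KD control and 12.2 ± 0.0488 in KD cells. SEMA3F was at 9.98 ± 0.301 CPM per kilobase in parental, 5.5 ± 1.13 in OE, 2.67 ± 0.239 in KD control and 3.54 ± 0.278 in KD cells. SEMA3E was at 0.194 ± 0.0159 CPM per kilobase in parental, 0.272 ± 0.00645 in OE, 0.142 ± 0.0297 in KD control and 0.159 ± 0.0402 in KD cells. The first was lowest with OE, whereas SEMA3F was lower still in the knockdown experiment. PLXND1 was at 4.17 ± 0.137 CPM per kilobase in parental, 1.81 ± 0.112 in OE, 0.774 ± 0.0568 in KD control and 1.48 ± 0.146 in KD cells. SEMA5A was at 14.1 ± 0.686 CPM per kilobase in parental, 5.2 ± 0.0599 in OE, 6.17 ± 0.639 in KD control and 6.75 ± 0.403 in KD cells, and PLXNB3 at 2.1 ± 0.319 CPM per kilobase in parental, 1.52 ± 0.063 in OE, 1.4 ± 0.0702 in KD control and 0.711 ± 0.0726 in KD cells. For PLXND1, SEMA5A and PLXNB3 the parental cells had the highest mean of the 4 groups. EFNB3 was at 13.7 ± 0.469 CPM per kilobase in parental, 35.6 ± 4.03 in OE, 12.6 ± 0.195 in KD control and 11.9 ± 1.18 in KD cells. EPHA4 was at 0.914 ± 0.0704 CPM per kilobase in parental, 2.75 ± 0.0958 in OE, 0.094 ± 0.0249 in KD control and 0.117 ± 0.016 in KD cells. PLXNC1 was at 0.283 ± 0.0287 CPM per kilobase in parental, 0.667 ± 0.126 in OE, 0.237 ± 0.00404 in KD control and 0.32 ± 0.0185 in KD cells. These 3 had their highest mean with OE, and the other 3 groups of EFNB3 and PLXNC1 lay close together, while EPHA4 was lower in the knockdown experiment than in parental cells. UNC5B was at 12.8 ± 0.903 CPM per kilobase in parental, 27.4 ± 2.52 in OE, 24.6 ± 0.1 in KD control and 19.5 ± 0.302 in KD cells, and UNC5C at 26.2 ± 0.738 CPM per kilobase in parental, 30.1 ± 1.99 in OE, 26.6 ± 2.09 in KD control and 24.5 ± 0.774 in KD cells, where parental cells had the lowest mean of UNC5B only.

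**Figure D4:**
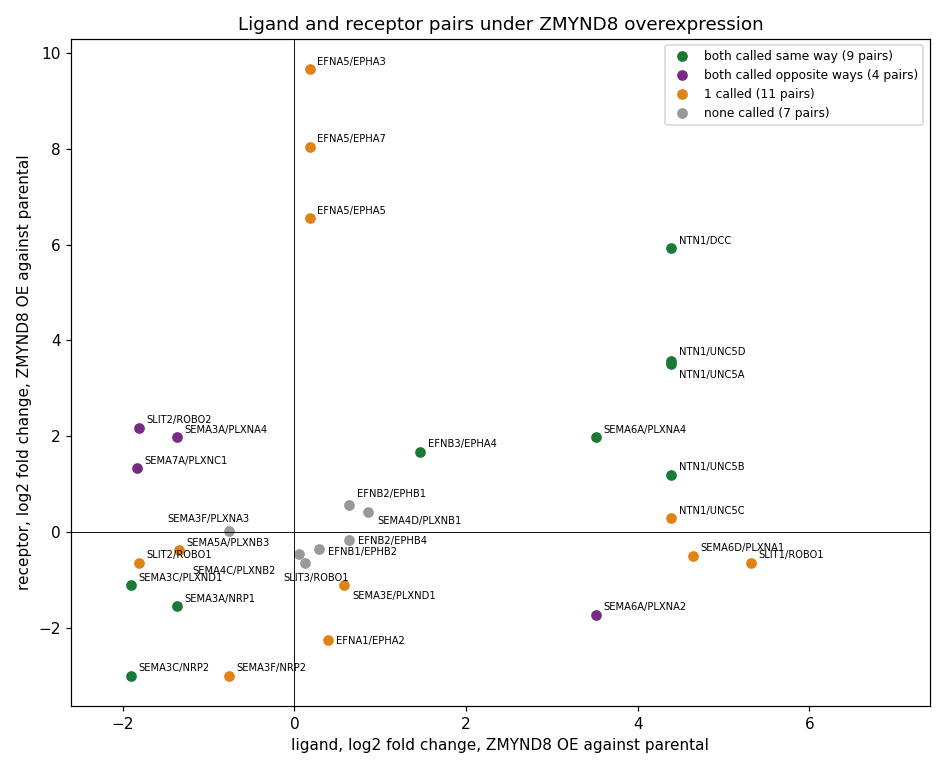
Log2 fold change of the ligand (x axis) and of the receptor (y axis) of 31 pairs with ZMYND8 OE against parental cells, each point 1 pair. The 5 pairs of NTN1 stand above each other at 4.39, with receptors between 0.29 (UNC5C) and 5.93 (DCC), and SEMA3C with NRP2 lies at the lower left at -1.90 and -2.996; the heights of EPHA3, EPHA5 and EPHA7 rest on 0 to 2 parental counts.

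Summed over a family, abundance was set by a few genes and did not follow the number of genes called. The EphA sum fell from 110.2 and 117.8 to 30.59 and 24.05 CPM per kilobase although 5 EphA genes were called higher, and EPHA2 carries most of this sum. The neuropilin and plexin sum fell from 263.5 and 279.8 to 133.6 and 130.8, and the class 3 semaphorin sum from 92.43 and 91.46 to 30.59 and 26.37. The Slit sum went from 69.15 and 72.57 to 32.75 and 32.91. Netrins rose from 2.290 and 2.107 to 10.67 and 11.59, the smallest family sum in every library, and their receptors from 38.29 and 40.58 to 62.54 and 61.90. The ephrin-B sum rose from 31.23 and 32.69 to 57.27 and 64.79, while the membrane semaphorin sum (64.05 and 69.27 against 66.13 and 67.39) overlapped between the groups, with a log2 ratio of 0.0022 that was 0.24 when scaled to TPM. Over all ligands the log2 ratio of the group means was -0.34, and over all receptors -0.84, with no test on these sums. Scaled to TPM the ratios were -0.10 and -0.61, and the sign of the EphB sum turned from -0.13 to 0.11.

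**Figure D5:**
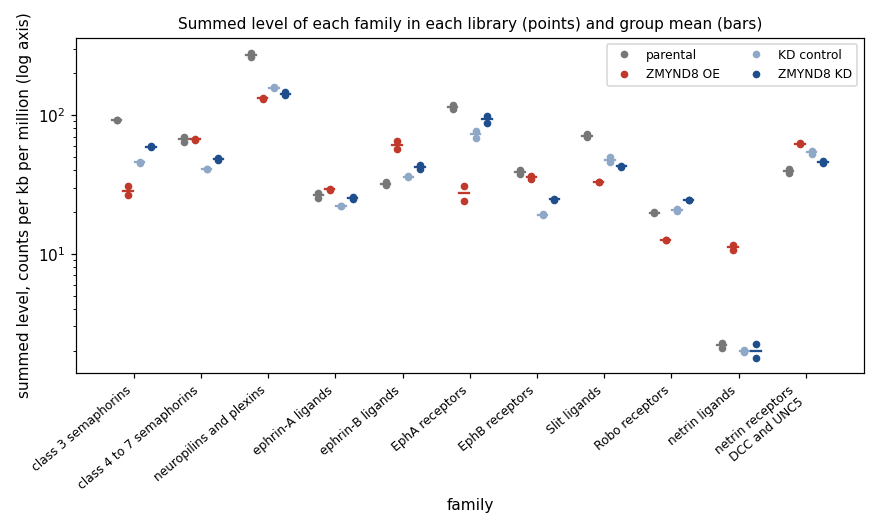
Summed level of each family (x axis) in CPM per kilobase on a log axis, with a point for each library and a bar for the group mean. The OE points lie below the parental points for class 3 semaphorins (26.4 and 30.6 against 91.5 and 92.4) and EphA receptors, and above them for netrins (10.7 and 11.6 against 2.11 and 2.29).

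The second comparison asks what changed when ZMYND8 was lowered. Changes were smaller: of 60 members tested, 3 were called higher (5%, against 1.36% of all genes tested) and 0 were called lower (against 0.596%) by edgeR's quasi-likelihood test, and DESeq2 also gave 3 and 0. At an unadjusted p below 0.05, 12 members were lower, 0 of them by 2-fold or more. Without the fold limit 19 members passed the test as higher and 6 as lower, against 13.1% and 10.6% of all genes tested. SEMA7A was called higher at 1.27 ± 0.105 (adjusted p = 1.71e-05), from 1064 and 878 to 2416 and 2125 counts. SEMA3B, a class 3 semaphorin known as a tumour suppressor candidate, had 456 and 601 counts in the parental, 345 and 260 in the OE, 484 and 441 in the KD control and 970 and 921 in the KD libraries, a log2 fold change of 1.08 ± 0.0969 (adjusted p = 3.02e-05). ROBO4 was called higher at 1.78 ± 0.19 (adjusted p = 9.28e-05). In all 3 genes both KD libraries were above both KD control libraries. The count of 3 rests in part on single libraries: without KD library 2 it was 5, with PLXND1 and EPHB1 added, without KD control library 1 it was 4 (PLXND1), and without KD control library 2 SEMA3B was lost. PLXNB3 (-0.98 ± 0.119) was called lower without KD control library 2 or without KD library 1. Scaled to TPM, 2 members were at least 2-fold higher and 1 at least 2-fold lower, with SEMA3B under the limit and PLXNB3 past it.

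Most class 3 semaphorins were higher with KD, mainly below the 2-fold limit. SEMA3A (0.36 ± 0.0481), SEMA3C (0.31 ± 0.0503), SEMA3D (0.75 ± 0.0805) and SEMA3F (0.41 ± 0.0971) passed as higher beside SEMA3B, and SEMA3E (0.17 ± 0.251) and SEMA3G (0.15 ± 0.494) did not pass. Their receptors did not move in parallel: NRP1 was at 0.0088 ± 0.051 and NRP2 at -0.057 ± 0.0504, neither past the test, PLXND1 passed as higher (0.94 ± 0.108), and PLXNA2 (-0.50 ± 0.0591), PLXNA4 (-0.62 ± 0.0493), PLXNA3 (-0.28 ± 0.061) and PLXNB3 passed as lower. Of the other membrane semaphorins, SEMA6A (0.38 ± 0.101), SEMA6B (0.52 ± 0.137) and SEMA4F (0.34 ± 0.0607) passed as higher and SEMA4G as lower (-0.45 ± 0.0685). Among Eph genes EPHB1 (0.94 ± 0.157), EPHB2 (0.61 ± 0.0496), EPHB3 (0.49 ± 0.0917) and EPHA2 (0.36 ± 0.075) passed as higher, and so did the ligands EFNA5 (0.54 ± 0.0565) and EFNB2 (0.47 ± 0.0482). ROBO1 (0.23 ± 0.0505) and NTN4 (0.66 ± 0.15) were higher and UNC5B (-0.33 ± 0.0477) lower. The other 35 tested members did not pass. Some of these smaller differences rested on single libraries or on the filter: EPHA2 and SEMA3F did not pass without KD control library 2, SEMA6A, ROBO1, NTN4 and PLXNA3 without KD control library 1, and SEMA6B without any of KD control library 1, KD control library 2 and KD library 1. EPHA2, SEMA3F, SEMA6A, SEMA6B and PLXNA3 also did not pass when no filter on low counts was used.

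For 9 members the knockdown could not be tested because their counts were too low, EPHA1, EPHA3, EPHA5, EPHA6, EPHA7, EPHA8, NTN1, SEMA5B and SLIT1, each with at most 13 counts in any library of that experiment. Of these, 8 were called higher with OE or had ratios above 10 there, and EPHA1 was called lower. Of the 31 pairs, 22 could be read in the knockdown, 1 with a called partner (SEMA7A, beside PLXNC1 at 0.44 ± 0.158) and 21 with none. The log2 ratio of the summed receptors was 0.03 and turned to -0.08 when scaled to TPM, and that of the summed ligands was 0.18 and 0.07.

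The effects of raising and lowering ZMYND8 were compared by a test of their difference over all 8 libraries, which share no control. For 31 of 69 members the overexpression effect was higher than the knockdown effect (past the test, against 21.4% of all genes tested), and for 24 it was lower (against 23.2%). Of 24 members that passed both comparisons, 15 had opposite signs (62.5%). This share is near that of all genes, since 2129 of the 3454 genes that passed both comparisons had opposite signs (61.6%). All 15 members also passed the test of the difference. Their selection all but ensured this, since effects of opposite sign add up in a difference, so it is no further support. In 12 of these the gene was lower with OE and higher with KD: 5 class 3 semaphorins (SEMA3A, SEMA3B, SEMA3C, SEMA3D and SEMA3F), SEMA4F, SEMA7A, EPHA2, EPHB2, PLXND1, ROBO1 and ROBO4. These are 12 of the 24 members, against 1419 of the 3454 genes (41.1%), and the shares were not tested against each other. The other 3 of the 15, PLXNA4, SEMA4G and UNC5B, were higher with OE and lower with KD. In the remaining 9 the signs were the same, 7 as higher in both (EFNA5, EFNB2, EPHB1, EPHB3, NTN4, SEMA6A and SEMA6B) and 2 as lower (PLXNA2 and PLXNB3), and 6 of the 9 passed the test of the difference.

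The largest differences among the members that passed all 3 tests were in ROBO4 (-5.19 ± 0.351, adjusted p = 1.13e-08) and SEMA7A (-3.11 ± 0.184, adjusted p = 2.6e-09), whose libraries were lowest with OE, and in SEMA6A (3.13 ± 0.149, adjusted p = 2.38e-10). SEMA6A was higher in both experiments, so its difference is one of size. NTN4 (2.65 ± 0.201) was likewise higher in both. EPHA2 (-2.62 ± 0.151) and PLXNA4 (2.59 ± 0.0714) moved in opposite directions. By the sample descriptions the experiments differed in Dox and in their controls, and the knockdown vector used in these cells is not named there. A difference between the effects therefore cannot be told apart from a difference between the experiments.

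Across the 4 groups, the controls themselves differed. Without a test, since experiment and group coincide, the KD control level was at least 2-fold above the parental level for 10 of 63 members with more than 3 counts in at least 1 library of both groups, and at least 2-fold below it for 21. Among the members named above, SEMA6D, PLXNA4, ROBO2, UNC5A and EPHA10 had higher levels in KD control than in parental cells, and NRP1, SLIT2, PLXNA2 and EPHA1 lower ones. NRP2 was at 37.9 ± 0.429 in parental and 36.5 ± 0.653 in KD control libraries. The OE effects are measured against the same parental libraries, so these values are not independent of them. OE libraries had the highest mean level of the 4 groups in 34 of 69 members and the lowest in 11, against 23 and 20 for parental, 5 and 22 for KD control and 7 and 14 for KD cells, leaving out of the lowest the 2 members that were tied at 0 (EPHA3 and EPHA5). The 34 include EPHA3, EPHA5, EPHA7, NTN1, SEMA5B and SLIT1, which had few counts in the other groups. Shares of all genes are not given for these ranks or for the 2-fold counts between controls. These numbers therefore cannot be read as particular to guidance genes.

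Other genes of the pathway, taken from lists of textbook members, also differed with OE in both directions. Of 25 tested genes for other guidance cues, their receptors and adhesion molecules, 13 were called higher with OE (52%, against 11.7% of all genes tested) and 2 lower (8%, against 6.84%). CHL1 was at least 44.4-fold higher and SHH, a morphogen that also guides commissural axons, at least 23.6-fold higher, both from 0 parental counts. CXCR4, the receptor of CXCL12, had a log2 fold change of 6.51 ± 0.254 from 5 and 3 parental counts. Among the 13, CHL1, SHH, CXCR4, NTNG1 (5 and 1 parental counts) and CNTN2 (8 and 10) passed the filter on low counts through the OE libraries. They could enter the test only as higher. HGF (-2.26 ± 0.0821) and its receptor MET (-1.95 ± 0.0817) were called lower. Of 50 tested cytoplasmic effectors, 9 were called higher (18%, against 11.7% of all genes tested) and 7 lower (14%, against 6.84%). Without the fold limit 15 passed as higher, a share of 30% that is near the 26.6% of all genes, and 29 as lower (58%, against 27.7%). DPYSL5 (4.96 ± 0.0801), CRMP1 (4.14 ± 0.0722), both collapsin response mediators, and VAV3 (3.07 ± 0.172) rose most. MICAL2, an actin oxidase downstream of plexins, fell by 3.09 on the log2 scale (SE 0.0992), RASA1 by 1.47 (SE 0.05) and SRGAP2, an effector of Robo, by 1.47 (SE 0.0617). With KD, 1 gene of both lists was called, FLRT2 at 1.63 ± 0.161, a ligand of UNC5 receptors, from 102 and 138 to 384 and 332 counts. It was 1 of 22 tested genes of the first list (4.55%, against 1.36% of all genes tested), a difference in shares that was not tested. Of the 50 tested effectors 0 were called. FLRT1 went the other way at -1.65 ± 0.394 (adjusted p = 0.0119 in edgeR's quasi-likelihood test). With a mean normalized count of 19.05 it stayed under the limit on the mean and was not called.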

How the data were processed

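Libraries were made from RNA without its ribosomal part. The authors trimmed reads with Trim_Galore, removed those with a Phred score under 25, aligned them to GRCh38 with HISAT2 and counted them with featureCounts. The methods name GENCODE v28, and the strand setting is not given in the sources used here. The deposited values are raw counts per gene. Of 60662 lines, 3 that split a gene were left out.

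OE and KD were each tested within the 4 libraries of the experiment by edgeR 4.0.16 (quasi-likelihood test, TMM, filterByExpr, Benjamini-Hochberg over all genes tested, in R 4.3.3 with limma 3.58.1), and the difference between effects on all 8. Calls needed an adjusted p below 0.05, a log2 fold change of at least 1 in size and a mean normalized count above 20. Alternatives were DESeq2 1.42.0, other normalizations and filters, a mean above 100, length and GC corrections (loess, span 0.5), a replicate block and leaving out each library. The test was tested on simulated data. Intervals and floors cover counting error only. Members, lists, pairs and tests were chosen with earlier results of these data known. Counts per library were given for members called with KD, for up to 8 called members with the largest rise and 8 with the largest fall with OE (mean above 100, groups apart), and for the 6 with the largest difference among those past all 3 tests, with partners of pairs as levels.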

Additional observations from a re-analysis of the deposited data

How the results depend on the processing

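With 2 libraries per group, calls near a limit depended on single libraries. With OE, 25 members were called higher and 13 lower. SEMA5B was lost without either OE library and, with NTN1, in 1 fit of all 8 libraries, where their means fell under 20, EFNA3 was lost with a length and GC correction, and EPHA6 or SEMA3G were gained without some libraries. With KD, 3 members were called higher, 2 to 5 when a library was left out, and 0 were called lower, 0 to 1 when a library was left out. With TPM scaling these were 2 and 1. The number past the test as lower with KD was 6, against 11 with a replicate block and 12 with the block and a length correction. Libraries of the same number deviated together with r = 0.0442 across genes in the OE experiment and 0.1003 in the KD experiment, with 2 pairs each. The labels do not say that a number marks a shared culture, and whether the libraries are paired could not be settled. The block moved the genes past the test with KD from 4707 to 6241 over all genes. Scaled to TPM, all log2 fold changes moved by 0.2337 with OE and by -0.1106 with KD, relative to the values reported. The log2 ratio of the summed ligands was then -0.1033 with OE and 0.0678 with KD, and that of the summed receptors -0.6086 and -0.0800. Counting depth limits EPHA6, EPHA8 and the members that were not tested with KD.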

Other observations

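Counts on non-coding genes antisense to guidance receptors are given here as deposited. The strand setting of the counting is not given for either experiment, so they cannot be told apart from reads of the gene on the other strand and are not a measure of antisense expression. The antisense transcript inside NRP2, ENSG00000225216, had 221 and 260 counts in parental, 27 and 17 in OE, 0 and 2 in KD control and 0 and 1 in KD libraries. The one inside NRP1, ENSG00000238258, had 209 and 232, 68 and 72, 2 and 4, and 2 and 3 counts in the same order. NRP2 itself was close to equal in parental and KD control libraries. Over 286 non-coding genes lying at least 95% inside exons of an abundant gene on the opposite strand, the summed counts were 17320 to 24316 per library in the OE experiment and 1732 to 1947 in the KD experiment. The cause was not tested.

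KY, which overlaps EPHB1 on the opposite strand, was called lower with OE (log2 fold change -2.09 ± 0.172), while EPHB1 passed the test as higher. The same limit holds for UNC5C-AS1, antisense to UNC5C, which was called higher (1.19 ± 0.128, from 150 and 177 to 399 and 370 counts), beside UNC5C at 0.29.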
